A study of Mus musculus with 9 samples.

Results

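The AP-1 genes encode basic leucine zipper transcription factors of the FOS, JUN, ATF, BATF and small MAF groups. The 10 AP-1 genes described here were taken by name from the gene tables, which list 55401 genes: Fos, Fosb, Fosl2, Jun, Junb, Jund, Atf3, Batf, Maff and Mafk. All 10 were found, each under one Ensembl identifier. Their RNA was measured in 9 libraries of H9M cells, a mouse model of acute myeloid leukemia. The cells are lineage-negative bone marrow of C57BL/6-Ly5.1 mice transduced with a gammaretroviral Meis1-2A-Hoxa9 vector. Each clone carried an FGB-D lentiviral color code. A pool of color-coded clones was transplanted with helper marrow into lethally irradiated C57Bl6/J recipients. cKit+CD11bdim splenocytes were later thawed and sorted by color code.

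The libraries form 3 groups of 3. The pre-malignant group holds clones 33, 38 and 43, all sorted from mouse 15 at an early endpoint. The de novo expanded group holds the clone that had newly expanded in each of 3 leukemic mice, which is clone 38 in mouse 13, clone 43 in mouse 14 and clone 33 in mouse 17. The stably expanded group holds clone 34 from the same 3 leukemic mice. The pre-malignant group thus comes from 1 mouse and the stably expanded group is 1 clone, so stage and mouse in the former, and stage and clone in the latter, cannot be told apart. Every clone shares the Meis1-2A-Hoxa9 vector and a color-coding vector. The table columns give the group of a library but not its mouse or clone, so libraries are numbered 1 to 3 within a group and a number names no clone.

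AP-1 proteins bind DNA as dimers. FOS proteins need a JUN partner, while JUN proteins can also pair with each other, and the classical FOS:JUN dimer recognises the palindrome TGANTCA with C or G in the middle. Fos, Fosb, Jun, Junb and Atf3 are immediate early genes, transcribed within minutes of mitogen or stress signals through MAP kinases. Their RNA is short-lived, so its level falls soon after transcription stops. In myeloid cells FOS and JUN proteins are known for their part in monocyte and macrophage differentiation. BATF lacks a transactivation domain and pairs with JUN proteins beside IRF factors. The small MAF proteins MAFF and MAFK likewise lack one and serve as partners of the NFE2 and BACH proteins.

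The sequence before the start site of 5 of these genes is shown because they gave the lowest ratios of leukemic to pre-malignant level or the highest level, and because FOS and JUN proteins are known to act on their own genes. Each run is the 250 bases before the RefSeq start site in GRCm38.p6, 5′ to 3′ on the strand of the gene, and capitals mark the matches to the motifs spelled out in the next paragraph. Fos lies on the plus strand at chr12:85473640-85473889, Jun on the minus strand at chr4:95052223-95052472, Junb on the minus strand at chr8:84978749-84978998, Atf3 on the minus strand at chr1:191183334-191183583, and the second of 3 RefSeq starts of Maff on the plus strand at chr15:79347270-79347519. The Fos, Jun and Junb windows lie outside the gene in the deposited annotation. The Atf3 and Maff windows lie inside the annotated gene, downstream of an earlier start, with 7 exonic bases in the Atf3 window and 0 in the Maff window.
Fos: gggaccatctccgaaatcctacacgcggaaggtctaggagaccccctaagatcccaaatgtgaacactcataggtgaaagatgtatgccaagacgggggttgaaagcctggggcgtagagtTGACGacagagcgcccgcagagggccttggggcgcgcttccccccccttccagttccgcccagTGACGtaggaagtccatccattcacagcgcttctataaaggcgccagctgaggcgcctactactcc
Jun: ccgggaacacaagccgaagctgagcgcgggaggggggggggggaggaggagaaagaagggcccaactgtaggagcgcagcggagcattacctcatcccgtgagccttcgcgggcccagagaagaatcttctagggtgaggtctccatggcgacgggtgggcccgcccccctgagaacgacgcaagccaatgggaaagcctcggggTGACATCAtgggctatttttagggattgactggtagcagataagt
Junb: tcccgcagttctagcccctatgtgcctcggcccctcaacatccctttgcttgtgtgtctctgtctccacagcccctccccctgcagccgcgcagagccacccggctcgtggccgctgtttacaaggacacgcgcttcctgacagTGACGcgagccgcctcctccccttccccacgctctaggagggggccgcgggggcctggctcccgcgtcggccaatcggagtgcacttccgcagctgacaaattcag
Atf3: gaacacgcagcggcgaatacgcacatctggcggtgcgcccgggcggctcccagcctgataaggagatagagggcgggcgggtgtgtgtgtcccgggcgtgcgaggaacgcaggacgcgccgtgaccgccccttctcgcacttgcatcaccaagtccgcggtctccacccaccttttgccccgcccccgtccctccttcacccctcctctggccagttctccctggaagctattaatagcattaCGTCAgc
Maff: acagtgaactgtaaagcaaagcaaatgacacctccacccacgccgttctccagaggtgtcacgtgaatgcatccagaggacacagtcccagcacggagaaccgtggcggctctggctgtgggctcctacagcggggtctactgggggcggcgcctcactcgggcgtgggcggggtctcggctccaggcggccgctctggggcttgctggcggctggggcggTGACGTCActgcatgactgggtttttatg

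The letters of 4 motifs were searched on both strands in the 250 bases before each start: the AP-1 site TGANTCA, the Jun-type site TGACATCA, the full cyclic AMP response element TGACGTCA and its core TGACG. In TGANTCA, N was taken as any base. A full element also holds the core on both strands. The 10 genes have 12 such windows, since Maff has 3 starts. The AP-1 site occurred before 0 of the 10 genes, in 0 of 12 windows, against 6.75% of all 32851 such RefSeq windows. That share also counts windows with A or T in the middle of the site. TGACATCA occurred before 2 genes, Jun and Maff, in 2 of 12 windows, against 2.93% of all windows. In Jun it began 45 bases before the start. TGACGTCA occurred before 1 gene, Maff, in 1 of 12 windows, against 1.55% of all windows, and began 29 bases before its second start. The core TGACG occurred before 7 genes, in 8 of 12 windows, against 17.8% of all windows. In Fos it began 129 and 66 bases before the start, in Fosb 60, in Junb 106, in Batf 98 and in Mafk 41, while in Atf3 it lay on the opposite strand 7 bases before the start. Fosl2 and Jund had none of the 4 motifs in these windows. The Fosl2 window lay inside the annotated gene, with all 250 bases exonic. The Jund window ended at chr8:70697738, apart from the annotated start of the gene at 70698949. These 2 windows are thus not the bases just before the annotated start. The shares over all windows were not matched for base composition, and no enrichment of a motif was tested. A match is a run of letters and not a measured binding site.

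The libraries held between 10379739 and 15551196 reads on genes. De novo expanded library 3 stood apart from its group. The root mean square distance of its log2 values was 1.04 to the other de novo expanded libraries and 0.772 to the stably expanded ones, while de novo expanded libraries 1 and 2 were 0.65 apart. Mpo, the gene of the granule enzyme myeloperoxidase, was at a normalized count of 218137 in library 3 against 22355 and 36037 in libraries 1 and 2. Each de novo expanded library is a different clone from a different mouse. The distance of library 3 thus cannot be told apart from a difference of clone or mouse. The AP-1 and list results that use the de novo expanded group are therefore followed by values without library 3. That choice was made from these values, and fits without library 3 lack its clone in the de novo expanded group but keep all pre-malignant clones. Kit, the surface receptor of the sort, was between 1937 and 3979 in all 9 libraries.

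A normalized count here is the number of reads on a gene divided by the size factor of its library, set on a common scale over the 9 libraries. Fos, the founding member of the family, was at 7289, 6552 and 8821 in the pre-malignant libraries, at 3007, 4250 and 1934 among de novo expanded and at 1198, 4191 and 3813 among stably expanded ones. All 3 pre-malignant libraries lay above all 6 leukemic ones, and stably expanded library 1 was lowest. Fosb, which pairs with JUN proteins as Fos does, was at 6191, 6630 and 5732 in pre-malignant, 4702, 4653 and 3257 for de novo expanded and 1968, 2867 and 5243 for stably expanded libraries. Again no leukemic library reached the pre-malignant range, although stably expanded library 3 came close to it. Fosl2, which encodes FRA-2 and responds later than Fos, was at 1500, 1726 and 1600, then 1425, 1133 and 591, then 884, 1019 and 978 in the same order of groups. The stably expanded libraries of Fosl2 were close together, while the de novo expanded ones spread widely with library 3 lowest.

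Jun, the main partner of FOS proteins, was at 13539, 12080 and 13272 in pre-malignant libraries, at 7983, 6705 and 9642 among de novo expanded and at 5319, 6443 and 11758 among stably expanded ones. The pre-malignant libraries were highest, and stably expanded library 3 lay just below them. Unlike Fos and Fosb, Jun was highest within the de novo expanded group in library 3. Junb, which can oppose Jun at some target genes, was at 1361, 1453 and 1351 in pre-malignant, 884, 788 and 572 for de novo expanded and 450, 720 and 733 for stably expanded libraries. The lowest pre-malignant library lay well above the highest leukemic one.

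Jund, usually a constitutively expressed JUN gene, had very few reads here. Its normalized counts were 11.6, 8.37 and 13.9 in pre-malignant, 11.4, 8.72 and 7.22 for de novo expanded and 7.24, 10.1 and 6.72 for stably expanded libraries, so the groups overlapped. The GC content of its transcript was 62.7%, and that of the Junb transcript was 62.6%. Of the 1668 exon bases of Jund, 877 are shared with Gm11175 on the opposite strand, which had between 0 and 2 reads a library. Whether GC content or the shared bases bear on the low count was not tested. With so few reads a difference in Jund between groups could not be resolved.

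Atf3, a stress-induced factor that pairs with JUN proteins and can repress, had the widest range of the 10 genes. It was at 505, 252 and 479 in pre-malignant libraries, at 131, 202 and 50.5 among de novo expanded and at 23.5, 124 and 167 among stably expanded ones. The highest library was 21.5 times the lowest, and the pre-malignant libraries did not overlap with the others. Batf did not share this pattern. Its counts were 237, 182 and 223 in pre-malignant, 201, 153 and 271 for de novo expanded and 286, 254 and 212 for stably expanded libraries, with the highest value in stably expanded library 1, where Fos and Atf3 were lowest.

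The small MAF genes differed from each other. Maff, the inducible one, was at 54.6, 54 and 61.9 in pre-malignant, at 61.5, 47.9 and 28 for de novo expanded and at 22.6, 20.2 and 16.1 for stably expanded libraries. The stably expanded libraries were the 3 lowest, and de novo expanded libraries 1 and 2 were near the pre-malignant level. Mafk was at 473, 461 and 491, then 554, 516 and 321, then 305, 418 and 478, with all groups overlapping.

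**Figure D1:**
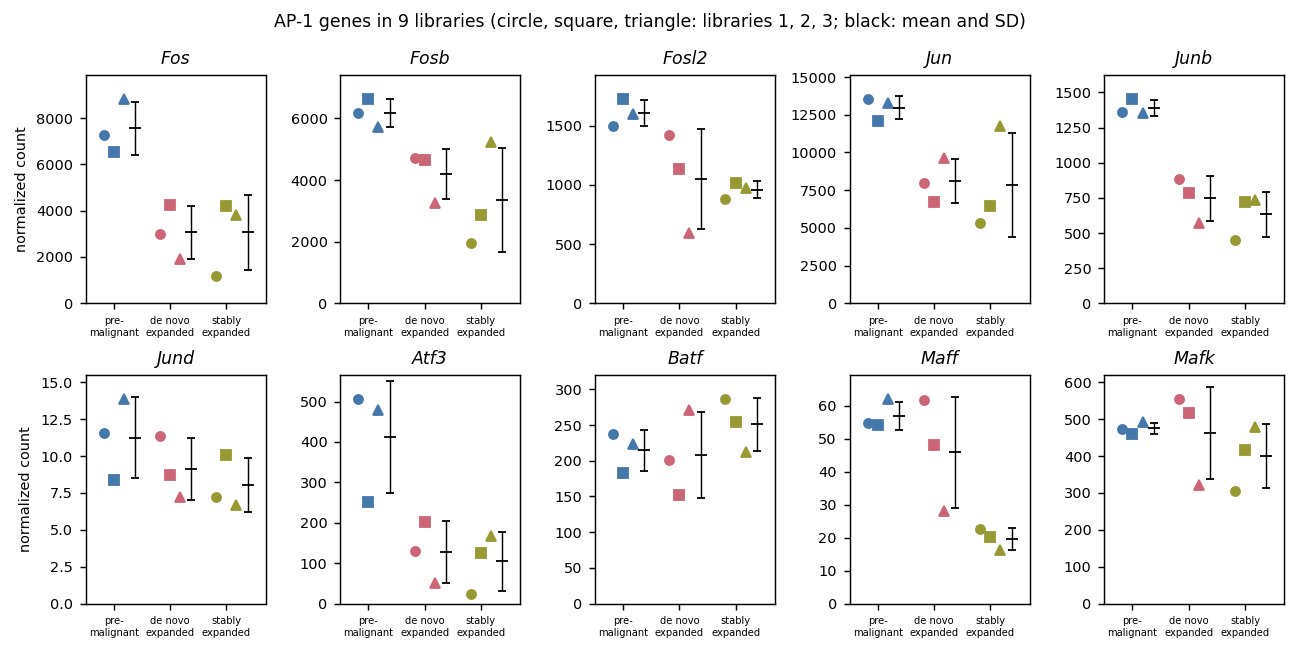
Normalized counts (linear y axes from 0, one panel a gene) of the 10 AP-1 genes in the pre-malignant, de novo expanded and stably expanded libraries, with circle, square and triangle for libraries 1, 2 and 3 and black marks for the mean and SD (n = 3). For Fos, Fosb, Fosl2, Jun, Junb and Atf3 all pre-malignant points lie above all leukemic points, while Batf, Mafk and Jund overlap.

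To compare genes with each other, levels were set per gene length, as RPKM, the reads on a gene scaled by its exon length and by the total reads of the library. In the pre-malignant group Jun was highest at 297 ± 15.5 (SD, n = 3), followed by Fos at 234 ± 35.9, Fosb at 72.3 ± 5.52 and Junb at 56 ± 2.68, and none of these neighbours overlapped. Atf3 at 13.9 ± 4.63, Fosl2 at 12.1 ± 0.964 and Batf at 11.1 ± 1.4 overlapped with each other in turn. Mafk at 8.88 ± 0.286, Maff at 1.6 ± 0.127 and Jund at 0.492 ± 0.119 were lowest. In both leukemic groups the first 4 places were the same, but Batf came next, at 10.8 ± 3.01 RPKM for de novo expanded and 13 ± 1.97 for stably expanded libraries. Atf3 came after Mafk and Fosl2, at 4.36 ± 2.62 and 3.54 ± 2.47 RPKM. In the de novo expanded group Batf, Mafk, Fosl2 and Atf3 each overlapped with the next gene, so their order there was not resolved. In the stably expanded group Jun, Fos and Fosb each overlapped with the next gene in the order, and Junb did not overlap with Batf.

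Fos made up 73, 69.2 and 77.6% of the summed RPKM of Fos, Fosb and Fosl2 together in pre-malignant libraries. The share was 58.7, 67.7 and 58.5% for de novo expanded and 55.6, 75.9 and 63.3% for stably expanded libraries, so stably expanded library 2 lay inside the pre-malignant range. Jun made up between 82.4 and 90.4% of the JUN genes in all 9 libraries. The ratio of the JUN to the FOS genes, again as RPKM, was 1.18, 1.14 and 1.02 in pre-malignant libraries. It was 1.38, 0.953 and 2.38 for de novo expanded and 2.1, 1.03 and 1.6 for stably expanded libraries. The leukemic libraries spread on both sides of the pre-malignant range in this ratio.

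**Figure D2:**
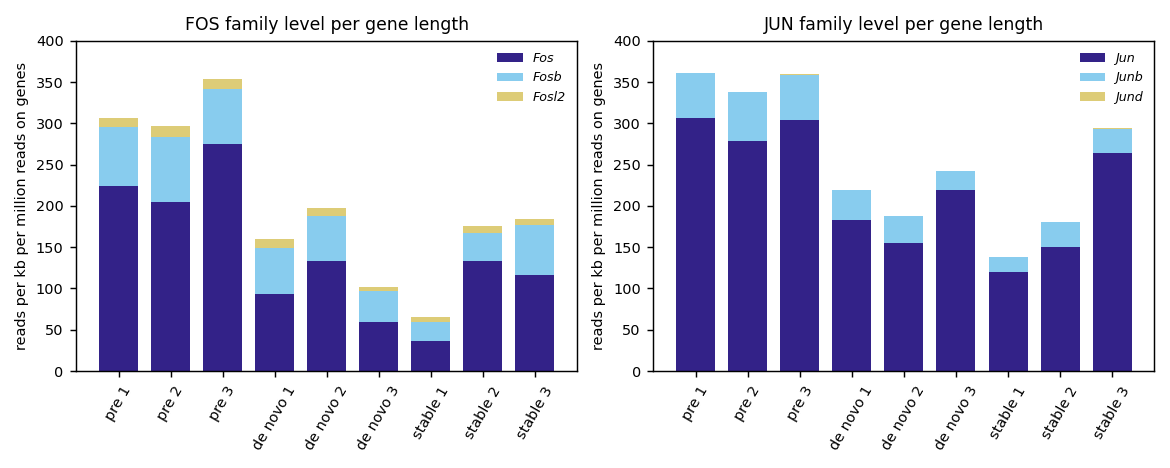
Stacked levels per gene length (y axes: RPKM) of the FOS genes (left) and the JUN genes (right) in each of the 9 libraries. Fos and Jun fill most of each bar, and the FOS bars of the leukemic libraries are at most 197 against at least 296 in pre-malignant libraries.

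The comparison of de novo expanded with pre-malignant clones asks how clones 33, 38 and 43 differ between an early stage and the leukemia they grew into. The mean level of Fos was 41.1% of the pre-malignant mean, that of Atf3 31.4%, that of Junb 54.6% and that of Jun 63.4%. Fosl2 stood at 66% and Fosb at 68.9%, while Batf (98.5%) and Mafk (98.9%) were near the pre-malignant mean. In limma across all genes, where a call needs an adjusted p under 0.05 and a 2-fold difference, 0 of the 10 genes were called, as were 0 of 14195 genes tested (0.0% lower). At an unadjusted p under 0.05, limma gave 1597 genes in either direction, and edgeR called 0 genes and DESeq2 42. Of the AP-1 genes, 6 were lower at an unadjusted p under 0.05, against 5.26% of all genes tested, and the same 6 had groups without overlap, against 8.5%. All 10 had a mean log2 value under the pre-malignant one, against 49.0% of all genes. The median log2 fold change of the 10 genes was -0.61, against 0.01 over all genes tested.

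The log2 fold changes were -1.34 for Fos (SE 0.27, adjusted p = 0.33 in limma), -0.89 for Junb (SE 0.16, adjusted p = 0.32) and -0.67 for Jun (SE 0.14, adjusted p = 0.33). Atf3 had a log2 fold change of -1.81 (SE 0.51, limma adjusted p = 0.38). Without de novo expanded library 3 the limma values were -1.05 for Fos (adjusted p = 0.00688), -1.25 for Atf3 (0.044), -0.72 for Junb (0.00784), -0.81 for Jun (0.00324) and -0.38 for Fosb (0.0471). Fos and Atf3 were then called, against 0.773% of genes called lower in that fit, 9 of the 10 genes had negative values and their median was -0.35. Those 2 were also the AP-1 genes that DESeq2 called on all 6 libraries. Over the omissions of single libraries the adjusted p in limma ran from 0.00688 to 0.795 for Fos and from 0.044 to 0.795 for Atf3. Fosl2 was not past the threshold with library 3 (log2 fold change -0.69, adjusted p = 0.443 in limma) or without it (-0.32, adjusted p = 0.162). In the exact permutation test on single genes, two-sided, 3 libraries against 3 cannot go below 0.1, the value that these 6 genes reached.

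The comparison of stably expanded with pre-malignant clones sets clone 34, found expanded in all 3 leukemic mice, against clones of the early mouse. Fos, Junb, Atf3 and Maff were lower, at 40.6%, 45.7%, 25.4% and 34.6% of the pre-malignant mean. In limma 4 of the 9 AP-1 genes tested were called, all lower, against 1.55% of 13968 genes called lower. Jund was not tested because its mean was under 10. The log2 fold changes were -1.49 for Fos (SE 0.37, limma adjusted p = 0.0354), -1.16 for Junb (SE 0.17, 0.00544), -2.30 for Atf3 (SE 0.59, 0.0381) and -1.49 for Maff (SE 0.35, 0.0275). Fosl2 (-0.74, SE 0.10, limma adjusted p = 0.00455) and Fosb (-0.996, SE 0.26, 0.0452) passed the adjusted p but fell short of 2-fold, so 6 of 9 passed the adjusted p, against 3.61% of all genes that were lower. Jun had -0.81 (SE 0.23, limma adjusted p = 0.053). Batf, at 117% of the pre-malignant mean, and Mafk, at 84.3%, had groups that overlapped. The groups did not overlap for 7 genes, all lower in stably expanded clones, against 14.6% of all genes, and the same 7 had an unadjusted p under 0.05, against 12.3%. Log2 fold changes were negative for 8 of 9, against 49.5% of all genes. Their median was -0.996, against 0.00 over all genes tested.

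These 4 calls depend on the libraries and the fit. Without any 1 of the 3 pre-malignant libraries only Junb was called, without stably expanded library 1 only Atf3, without library 2 of that group all 4, and without its library 3 Fosb and Jun were called as well, 6 in all. Over all genes these omissions gave from 206 to 452 calls, against 384 with every library. A single fit of all 9 libraries called 0 of the AP-1 genes, as did a fit that took as covariate the percentage of reads falling on olfactory and vomeronasal receptors, genes of sensory neurons used as an index of stray reads. Calls over all genes fell there too, from 384 to 6 in the fit of 9 libraries and to 5 with the covariate. DESeq2 called 2, Junb and Maff. That percentage was 0.0154, 0.0179 and 0.00808 in pre-malignant, 0.0118, 0.00376 and 0.00634 for de novo expanded and 0.00215, 0.00788 and 0.00603 for stably expanded libraries, and its part in the result was not tested beyond that fit. All 4 genes had negative log2 fold changes in each of these fits.

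**Figure D3:**
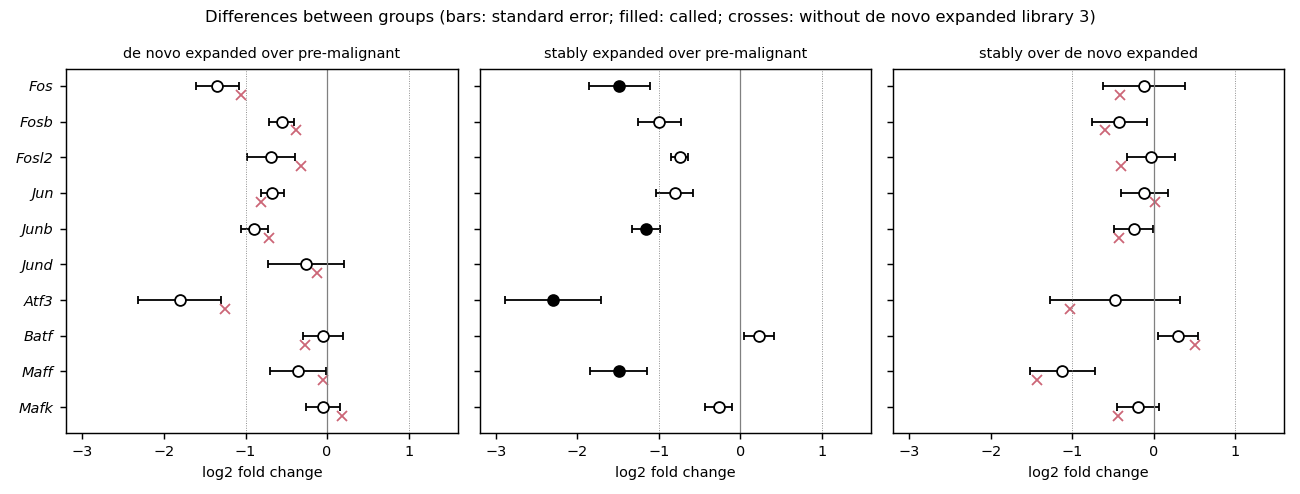
Log2 fold changes (x axes, limma) of the AP-1 genes in the 3 comparisons of groups, with standard errors as bars, filled points for called genes, crosses for the value without de novo expanded library 3, and dotted lines at 2-fold. Filled points appear for Fos, Junb, Atf3 and Maff in the comparison of stably expanded with pre-malignant libraries, and no point is filled in the other comparisons.

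The comparison of stably with de novo expanded clones asks whether clone 34 differs from the other clones that grew in the same mice. In limma 0 of the 9 AP-1 genes tested were called. Only 1 of 13758 genes was called, higher in stably expanded clones (0.0% lower), while 664 genes had an unadjusted p under 0.05, edgeR called no AP-1 gene and DESeq2 called 29 genes but no AP-1 gene. Maff had the lowest p of the AP-1 genes, with a mean of 42.9% of the de novo expanded mean (log2 fold change -1.12, SE 0.40, limma adjusted p = 0.891), and it was the 1 AP-1 gene with an unadjusted p under 0.05, against 2.11% of all genes that were lower. It was also the 1 gene without overlap between groups, against 4.95%. The adjusted p of Maff was 0.0781 in limma without de novo expanded library 3, and it ran from 0.0781 to 1 over the omissions of single libraries. Fos was at 100% of the de novo expanded mean, Jun at 96.6% and Junb at 84.8%, and those differences were smaller than the spread between replicates. Without library 3 the log2 fold changes of Fos, Fosl2, Junb and Fosb were -0.42, -0.40, -0.43 and -0.60, from -0.12, -0.04, -0.25 and -0.42 with it. The median of the 9 genes was -0.43 without library 3 and -0.20 with it, and 0 were called in either fit. Both this and the previous comparisons share libraries, so their values for a gene are not independent.

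With both leukemic groups together against the pre-malignant group, in a fit of 9 libraries, Fos stood at 40.6%, Fosb at 61.1%, Fosl2 at 62.5%, Jun at 61.5%, Junb at 49.8% and Atf3 at 28.2% of the pre-malignant mean. All 6 leukemic libraries were below all 3 pre-malignant ones for these 6 genes, against 5.59% of all genes that were lower without overlap. The exact permutation test gave p = 0.0238 for each of them, two-sided, the smallest value that 6 against 3 can give. It treats all 9 libraries as independent, although the 6 leukemic ones come from 3 mice and the 3 pre-malignant ones from 1 mouse. The p-values here therefore do not measure the spread between mice. For Maff the exact permutation p was 0.0952, with values at 57.6% of the pre-malignant mean, for Jund 0.143, for Batf 0.714 and for Mafk 0.548. In limma across all genes 0 of the 9 genes tested were called, against 0.00716% of genes called lower, although 7 had an unadjusted p under 0.05, against 9.28%. Junb had the smallest p (log2 fold change -1.04, SE 0.18, limma adjusted p = 0.0718). Without de novo expanded library 3 its adjusted p was 0.0118 with a log2 fold change of -0.95, and over all omissions of single libraries it ran from 0.0118 to 0.32 in limma. Without library 3 Fosl2 and Jun also passed the adjusted p in limma (0.0231 and 0.0496) but not the 2-fold limit. The log2 fold changes without library 3 were -1.28 for Fos, -1.79 for Atf3 and -0.70 for Fosb, against -1.42, -2.06 and -0.79 with it, and the median of the 9 genes was -0.78 against -0.79.

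Fewer cells that express a gene and less RNA per cell cannot be told apart in these bulk samples. Sums of marker genes of other cell types differed between some groups and overlapped between others. The summed normalized count of 8 B cell markers was between 2958 and 3548 in pre-malignant, 1044 and 2832 for de novo expanded and 1195 and 1444 for stably expanded libraries, and most of it was Ighm. Of these markers, 5 were called lower in stably expanded clones, against 1.55% of all genes. Cd79b went the other way, at 203, 130 and 248 against 95.6, 137 and 63.7 in pre-malignant libraries (log2 fold change 0.99, SE 0.32, limma adjusted p = 0.0796). The 8 neutrophil markers summed to between 912 and 1599, 1038 and 2833, and 2326 and 22817 in the same order, with Cxcr2, Ltf and Camp called higher in stably expanded clones. The 8 erythroid markers summed to between 335 and 773, 46 and 275, and 67.2 and 435. The 8 macrophage and dendritic markers summed to between 1242 and 2600, 817 and 3378, and 2432 and 3186. Nearly all of that was Vcam1, between 16 and 2303, and Adgre1, between 713 and 1354, while C1qa, C1qb, C1qc, Cd5l and Marco were at or under 13.7 in every library. Of the 8 T and NK cell markers, which summed to between 95.1 and 193, 46.7 and 1005, and 215 and 448, Nkg7 was called higher in stably expanded clones, and Cd3d and Cd3e were at or under 7.4 in every library. Of the 6 platelet markers Ppbp and Gp1bb were at 0 in all libraries, and the sum lay between 416 and 900.5, nearly all of it Itgb3. De novo expanded library 3 had the lowest B cell, erythroid and platelet sums and the highest neutrophil, macrophage and T and NK cell sums of its group. Whether these transcripts came from other cells or from the sorted clones was not tested, nor was their part in the AP-1 values.

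Other genes of the AP-1 pathway were described from lists. Of 15 other AP-1-like leucine zipper genes, 10 were lower and 5 higher in de novo expanded clones, with 0 called, and the median was -0.06 on the log2 scale. Without library 3 it was 8 lower and 7 higher, with 0 called and a median of -0.008. In stably expanded clones 7 of 14 tested were lower and 7 higher, with a median of -0.03. Bach2, a repressor that pairs with small MAF proteins, was called lower there, with 51.5, 31.6 and 36 in pre-malignant against 6.3, 11 and 12.1 in stably expanded libraries (log2 fold change -1.92, SE 0.46, limma adjusted p = 0.03). Jdp2, a repressor of AP-1, was at 473, 438 and 392 in pre-malignant and at 994, 763 and 854 in stably expanded libraries. Its log2 fold change of 0.998 (SE 0.13, limma adjusted p = 0.00417) fell just short of the 2-fold limit, in the direction opposite to Fos. Batf3 was not tested in that comparison.

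A list of 20 genes upstream of AP-1 held MAP kinases and their activating kinases, ribosomal S6 kinases and transcription factors. Against pre-malignant clones its medians were 0.05 in de novo and 0.06 in stably expanded clones, with 0 called in either. Whether each factor raises or lowers AP-1 genes in these cells was not tested. The former was 0.02 without library 3. In stably expanded clones Rps6ka1, the gene of the kinase RSK1, had the lowest p, with a log2 fold change of 0.46 (SE 0.09, limma adjusted p = 0.0154), below the 2-fold limit. In de novo expanded clones Elk3, a partner of SRF, had the lowest p (log2 fold change 1.05, SE 0.35, limma adjusted p = 0.399), and it was called without library 3 (1.49, adjusted p = 0.000446). Of 25 AP-1 target genes 18 were tested. In de novo expanded clones 15 were lower, 0 were called and the median was -0.24, and without library 3 it was 12 lower and 6 higher, with a median of -0.086. In stably expanded clones 13 were lower and 5 higher, with a median of -0.46. Ccl3 and Ccl4, genes of chemokines, were called lower (log2 fold changes of -1.46 and -1.38, limma adjusted p = 0.0466 and 0.0452), against 1.55% of all genes. Vegfa, a growth factor gene, was called higher (1.26, SE 0.26, limma adjusted p = 0.0173). Vegfa was at 2018 in de novo expanded library 3 and at 130 and 200 in libraries 1 and 2 of that group, and without library 3 it was called lower in de novo expanded clones (-1.78, limma adjusted p = 0.00567). Ccnd1, the gene of cyclin D1, was at 991 and 704 in libraries 1 and 2 and at 7.2 in library 3, against 140, 188 and 313 in pre-malignant libraries. Without library 3 it was called higher in de novo expanded clones (2.06, limma adjusted p = 0.00507), and with it the log2 fold change was -0.16 (adjusted p = 0.984). Genes in these lists are background to the AP-1 genes and were not tested as sets.

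Of 18 other immediate early genes, 17 were tested against pre-malignant clones. All 17 had negative log2 fold changes in de novo expanded clones, against 49.0% of all genes, with 0 called in limma. An unadjusted p under 0.05 was reached by 12, against 5.26% of all genes. Without library 3 it was 16 of 17, and Egr1, Egr3, Zfp36, Btg2 and Dusp1 were called lower, against 0.773% of all genes in that fit. In stably expanded clones all 17 were negative too, against 49.5% of all genes. Zfp36, Klf4, Klf6 and Ppp1r15a were called lower there, against 1.55% of all genes. Zfp36, which encodes a protein that destroys short-lived RNAs, had a log2 fold change of -1.21 (SE 0.22, limma adjusted p = 0.0114), and Ppp1r15a, a gene of the stress response, had -1.63 (SE 0.18, 0.00284). The medians were -0.84 and -0.99, against -0.61 and -0.996 for the AP-1 genes. Without library 3 the medians in de novo expanded clones were -0.87 for these genes and -0.35 for the AP-1 genes. Of 11 heat shock genes 10 were tested, with 0 called and medians of 0.04 and -0.14, the former 0.11 without library 3. Hsp90aa1, the gene of a cytosolic chaperone, had log2 fold changes of 0.66 (SE 0.13, limma adjusted p = 0.33) for de novo expanded and 0.67 (SE 0.17, 0.0417) for stably expanded clones, below the 2-fold limit.

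**Figure D4:**
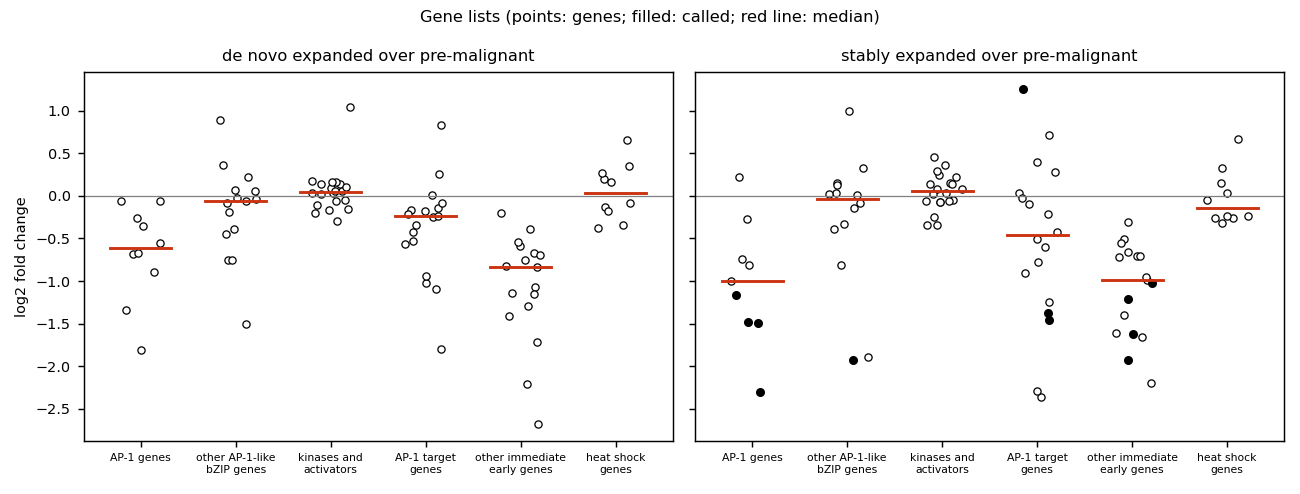
Log2 fold changes (y axis, limma) of the tested genes of 6 lists in de novo expanded (left) and stably expanded (right) over pre-malignant libraries, with one point a gene, filled points for called genes and a red line at the median. The AP-1 genes and the other immediate early genes have medians between -0.61 and -0.996, while the kinases and the heat shock genes lie near 0.

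The log2 values of each AP-1 gene, centred on its mean over the 9 libraries, were averaged over the 9 genes with a mean count of at least 10. The average was 0.62, 0.47 and 0.65 in pre-malignant, 0.07, 0.02 and -0.55 for de novo expanded and -0.93, -0.26 and -0.08 for stably expanded libraries. Stably expanded library 1 was the lowest of the 9 libraries for 6 of the 9 genes, and de novo expanded library 3 was the lowest of its group for 7. Junb lay nearest to the average, at a root mean square distance of 0.12, and Atf3 and Batf lay farthest, at 0.853 and 0.682.

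Of 13951 other genes with a mean count of at least 10, the 10 nearest to this average over the 9 libraries were Atrnl1 (0.146), 5031425E22Rik (0.153), Zeb2 (0.162), Pld4 (0.166), Mndal (0.169), L3mbtl3 (0.172), Slc9a9 (0.173), Snx30 (0.175), 2010111I01Rik (0.184) and Cplane1 (0.192), as root mean square distances in log2 units. The median distance over all these genes was 0.598. The genes were selected by their likeness and none belongs to the lists above. Zeb2, a zinc finger repressor, was at 7713, 8634 and 8296 in pre-malignant, 6364, 6961 and 3718 for de novo expanded and 3421, 4703 and 4578 for stably expanded libraries.

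**Figure D5:**
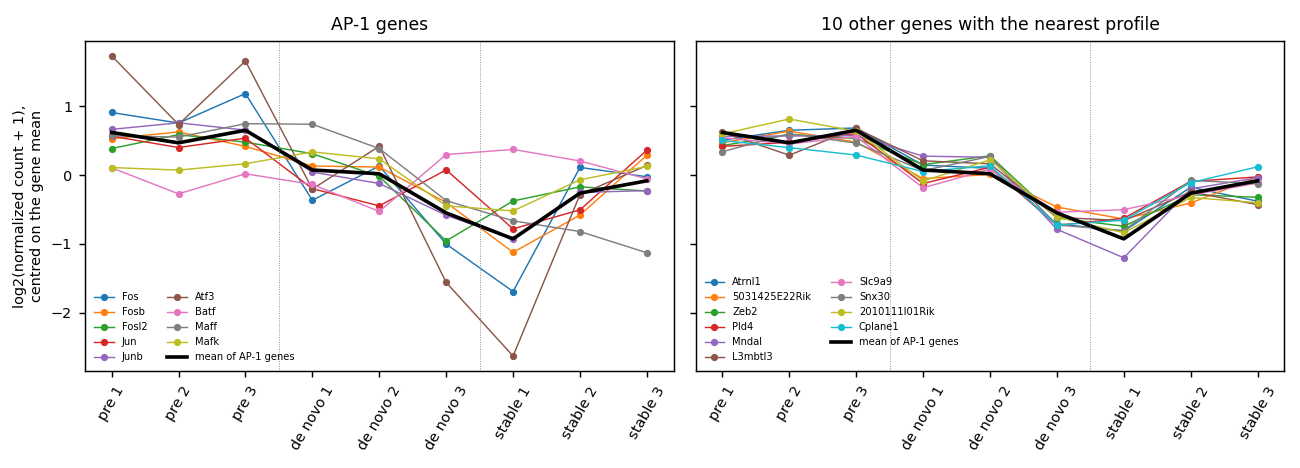
Centred log2 normalized counts (y axis) of the 9 AP-1 genes with a mean count of at least 10 (left) and of the 10 other genes nearest to their mean (right) in the 9 libraries, with the mean of the AP-1 genes in black. The mean lies between 0.47 and 0.65 in pre-malignant libraries and is lowest in de novo expanded library 3 and stably expanded library 1.

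Jun, Mafk and, as given above, Jund share exon bases with a gene on the opposite strand, and the sources used here do not state how the counting treated strand. Junos shares 232 of the 3189 exon bases of Jun and had between 16 and 154 reads a library. Tmem184a shares 169 of the 3901 exon bases of Mafk and had between 0 and 10 reads.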

How the data were processed

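RNA of 9 sorted populations was sequenced from SMARTer Stranded Total RNA-Seq Pico v3 libraries. Per the labels and the study's methods, the authors trimmed reads with Trim Galore 0.6.4, aligned them to GRCm38.p6 with STAR 2.6.1d, counted them per GENCODE gene with featureCounts 1.6.4 and deposited 3 pairwise tables of 6 libraries each. The deposited values are a signal, namely counts scaled by the authors with size factors from DESeq2. The tables also hold the authors' fold changes and p-values, which were not used. Whole reads were recovered from the steps of the values, 100% of them within 0.05 of a whole number, and summed to between 10379739 and 15551196 reads per library. Reads were also divided by median-ratio size factors over the 9 libraries.

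Genes with a mean of at least 10 were tested with limma 3.58.1 (trend) on log2(normalized count + 1) in R 4.3.3, so fold changes of low genes are understated. P-values were adjusted by Benjamini-Hochberg over all genes tested, and a call needed an adjusted p under 0.05 and a 2-fold difference. edgeR 4.0.16, DESeq2 1.42.0 (on recovered reads), other pseudocounts, filters and scalings, a fit of all 9 libraries, a stray-read covariate and the omission of each library were alternatives. The scripts were tested on simulated data. Nothing says that the libraries of 1 group are independent beyond the mice and clones named, so p-values measure the spread between these libraries. The columns name a group only and give no pairing.

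The AP-1 genes and the gene lists were chosen with earlier results of these data known. Named genes were all 10 AP-1 genes, the called genes of the pathway lists (else those of smallest p), the marker lists, and the 10 genes nearest in profile. Mpo, Jdp2, Ccnd1 and Zeb2 were chosen after their values were seen. Some genes of the lists and one part of the cell model are not reported here. Promoter windows came from RefSeq (GRCm38.p6), and all 10 genes matched by symbol.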

Additional observations from a re-analysis of the deposited data

How the results depend on the processing

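No paired analysis was possible because the columns carry no mouse, clone or replicate number. For de novo expanded against pre-malignant clones, the number of genes called, 0 in limma, was 5 without a filter on low values, 42 with DESeq2 and 5 in a fit of all 9 libraries, and DESeq2 called 2 AP-1 genes. For stably expanded against pre-malignant clones, 384 genes were called, and 6 in the fit of 9 libraries, 5 with the olfactory share as covariate and 1110 without a fold limit, while the 4 AP-1 calls became 2 with DESeq2 and 0 in both of those fits. For stably against de novo expanded clones, 1 gene was called, and 2 without a filter, 29 with DESeq2, 2 in the fit of 9 libraries and 0 with the covariate. The log2 fold change of Fos there was -0.12 and turned to 0.0013 with edgeR, 0.0014 with DESeq2 and 0.049 with the covariate, and that of Fosl2 turned from -0.04 to 0.075 with the covariate. For all leukemic against pre-malignant libraries, 4 genes were called, and 9 with a pseudocount of 5, 13 without a filter, 2 with a mean of at least 50, 11 after quantile normalization, 114 with DESeq2, 1 with the covariate and 14 without a fold limit, and 1 AP-1 gene (Junb) was called without a filter and with DESeq2. The cause of these differences was not tested.

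Leaving out single libraries gave from 0 to 214 genes called for de novo expanded against pre-malignant, from 206 to 452 for stably expanded against pre-malignant, from 0 to 508 for stably against de novo expanded and from 0 to 107 for all leukemic libraries. The counts of 214, 508 and 107 came without de novo expanded library 3. AP-1 calls ran from 0 to 2 and from 1 to 6 in the first 2 comparisons. Some differences near 0 changed sign in this way. For de novo expanded against pre-malignant, Batf ran from -0.27 to 0.15 and Mafk from -0.20 to 0.19. For stably against de novo expanded, Fos ran from -0.45 to 0.46, Fosl2 from -0.40 to 0.23, Jun from -0.45 to 0.12 and Atf3 from -1.03 to 0.38. Batf ran from -0.037 to 0.18 for all leukemic libraries. No other AP-1 log2 fold change changed sign under the alternatives run. Jund, with a mean near 10, was not tested in 3 of the 4 comparisons.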
